A study of Rattus norvegicus with 3 samples.

Results

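The natriuretic peptide genes Nppa, Nppb and Nppc, their receptor genes Npr1, Npr2 and Npr3, and the propeptide-cleaving protease gene Furin were followed across 3 culture media. The members were chosen by gene symbol, as the probe sets annotated with 1 of these symbols alone, and all 7 genes were found among 14218 genes measured. Each was read by 1 probe set. Total RNA came from fetal Wistar rat cardiomyocytes, heart muscle cells isolated with enzymes and plated for 48 hours. The cultures then spent 24 hours in fresh medium, in medium conditioned by skeletal myoblasts (precursors of skeletal muscle) or in medium conditioned by cardiac fibroblasts (the connective tissue cells of the heart). Strain, stage and plating were the same for all media, no genotype or drug is given in the labels, and the study was concerned with protection of cardiomyocytes by factors that myoblasts release. Each medium was measured on 1 Affymetrix 3' expression array, so no difference has a replicate check, an error or a p-value, and the number of arrays limits the precision.

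Natriuretic peptides are hormones made as longer precursors. Nppa encodes atrial natriuretic peptide (ANP), Nppb encodes B-type natriuretic peptide (BNP) and Nppc encodes C-type natriuretic peptide (CNP). ANP and BNP are secreted by heart muscle under load and lower blood volume and pressure, while CNP comes largely from endothelial and other non-muscle cells and acts locally. Npr1 is the guanylyl cyclase receptor for ANP and BNP, Npr2 is the one for CNP, and Npr3 binds all of them and clears them from the fluid around cells. In fetal heart both Nppa and Nppb are active, and they are textbook markers of cardiomyocyte stretch and hypertrophy.

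Nppb stood apart from the rest of the family. It was lowest in fresh medium, 4.06-fold higher in myoblast medium and 13.0-fold higher in fibroblast medium. Nppa had the same order of media in the deposited values, with much smaller steps, and that order did not hold when the arrays were centred on either class of control RNA. Among the receptors, Npr3 and Npr2 were lowest in myoblast medium and highest in fibroblast medium, and Npr1 had no value on any array. Values, as deposited, are log2 and place each array relative to the middle one of the 3 for that probe set, so 0 is the median array and a difference of 1 is 2-fold. Centring removed the brightness of each probe set. How strongly a gene was expressed, and whether its signal was near background or near saturation, therefore cannot be read from these values, and no gene's level is set against another's.

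**Figure D1:**
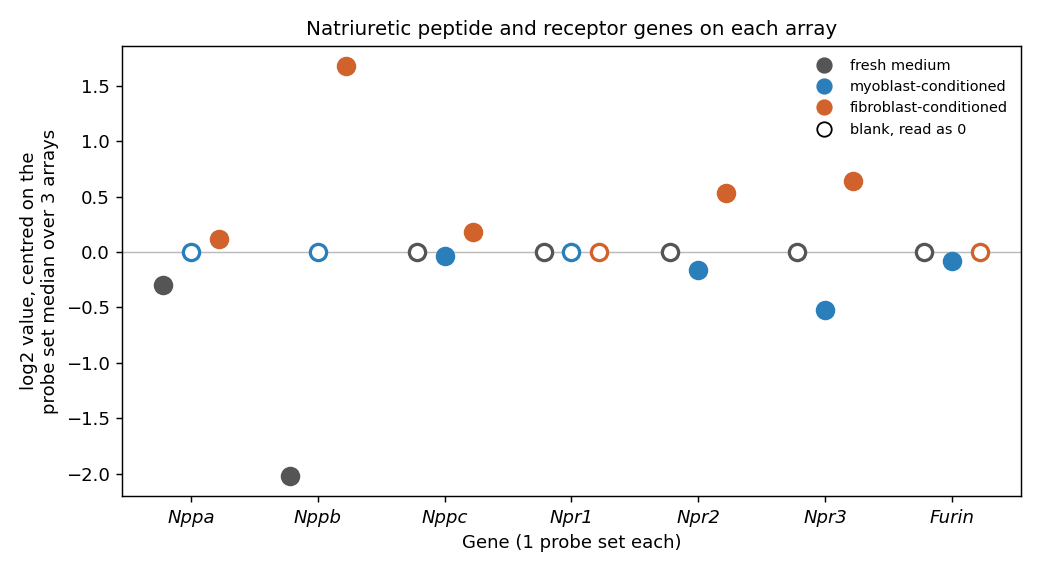
Centred log2 value of each natriuretic gene on the fresh medium, myoblast medium and fibroblast medium arrays, 1 point per array, with open points for blank cells read as 0. Nppb spans from -2.02 to 1.68, and no other gene spans more than the 1.16 of Npr3.

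The regions upstream of the 2 cardiac peptide genes are shown because these neighbours on chromosome 5 differed in how far they moved between media. Each line gives the 250 bases before the RefSeq start in the rat build GRCr8, 5′ to 3′ on the plus strand, at chr5:163699758-163700007 for Nppb and chr5:163711934-163712183 for Nppa. Capitals mark GATAA, the core bound by GATA factors, and CATTCC, the M-CAT element bound by TEAD factors, each searched on both strands, and TATAAA, the TATA box, searched on the gene's strand. No matches of these 3 motifs overlapped in either region.
Nppb: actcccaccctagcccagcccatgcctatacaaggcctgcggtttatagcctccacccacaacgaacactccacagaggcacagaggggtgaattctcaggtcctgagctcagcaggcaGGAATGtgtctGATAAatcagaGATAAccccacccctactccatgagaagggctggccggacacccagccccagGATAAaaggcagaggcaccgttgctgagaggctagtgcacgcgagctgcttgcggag
Nppa: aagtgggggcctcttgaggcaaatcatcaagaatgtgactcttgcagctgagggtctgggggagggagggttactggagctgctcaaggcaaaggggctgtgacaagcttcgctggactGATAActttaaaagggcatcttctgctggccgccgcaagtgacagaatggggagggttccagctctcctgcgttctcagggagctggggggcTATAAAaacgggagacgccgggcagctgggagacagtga

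Nppb held 3 GATA matches, beginning 120, 109 and 57 bases before the start, and 1 M-CAT match 131 bases before it. Nppa held 1 GATA match 131 bases before its start, a TATA box 39 bases before it and no M-CAT match. At least 1 GATA match was found in 23.5% of 33469 rat promoter windows of this length, an M-CAT match in 12.1% and a TATA box in 8.06%. The core AAGTG, which NKX2-5 binds, was matched at 250 and 95 bases before the start of Nppa, a motif present in 40.6% of windows, and was not matched in that of Nppb. The AP-1 element TGANTCA, found in 6.34% of windows, and the cAMP response element TGACGTCA, found in 1.59%, were searched on both strands and were matched in neither. The E-box CANNTG, found in 65.5% of windows, was matched 206, 96 and 17 bases before the start of Nppa and was not matched in Nppb. A match is a string of letters, and binding was not measured. Of the 7 genes, 5 matched a RefSeq window, and those of Nppc, Npr1 and Npr3 held no GATA or M-CAT match.

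The first comparison asks which of these genes differed when myoblast-conditioned medium replaced fresh medium. Nppb had a centred value of -2.02 in fresh medium and 0 in myoblast medium, a log2 difference of 2.02. The myoblast medium cells of Nppb and Nppa were blank and read as 0, the median array. Only 22 of 14218 genes had a larger positive difference. Nppb was the 1 member at least 2-fold higher, none was 2-fold lower, and over all genes 1.35% were at least 2-fold higher, 0.844% were 2-fold lower and 2.19% passed 2-fold in either direction. Nppa was at -0.30 in fresh medium and 0 in myoblast medium, a log2 difference of 0.30 (1.23-fold). In this comparison 20.3% of all genes lay at least as far from 0 as Nppa. The difference of Nppb exceeded that of Nppa by 1.72 on the log2 scale.

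The other members were level or lower in myoblast medium. Their fresh medium cells were blank and read as 0. Npr3, the clearance receptor, was at 0 in fresh medium and -0.52 in myoblast medium (1.43-fold lower). Npr2, the CNP receptor, was at 0 and -0.16. Neither reached 2-fold, and 8.35% of all genes lay at least as far from 0 as Npr3. Nppc was at 0 in fresh medium and -0.03 in myoblast medium. Furin, which encodes a convertase that cleaves many precursors, pro-BNP and pro-CNP among them, was at 0 and -0.08. Npr1 had no value on any array and was read as 0 throughout, so its differences of 0 come from blanks, and a tie cannot be told apart from a missing estimate.

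Fibroblast-conditioned medium was compared next, with the same fresh medium array, so the differences of both conditioned media share that array. Nppb was at -2.02 in fresh medium and 1.68 in fibroblast medium, a log2 difference of 3.70, which 25 genes exceeded. It was again the 1 member at least 2-fold higher, with none 2-fold lower. Over all genes 4.26% were at least 2-fold higher, 2.6% were 2-fold lower and 6.85% passed 2-fold in either direction. Nppa was at -0.30 and 0.12, a log2 difference of 0.41 (1.33-fold), and 24.6% of all genes lay at least as far from 0. Here the difference of Nppb exceeded that of Nppa by 3.28.

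Both receptor genes with values were higher in fibroblast medium, short of 2-fold. Npr3 was at 0 in fresh medium and 0.64 in fibroblast medium (1.56-fold higher). Npr2 was at 0 and 0.53 (1.45-fold higher). Of all genes, 14.1% lay at least as far from 0 as Npr3 and 18.3% as far as Npr2, so differences of this size were common on these arrays. Nppc was at 0 and 0.18. Furin was blank on both arrays and read as 0 on each. Of the 7 members, 5 had a difference above 0 and 0 below, with a median log2 difference of 0.41 against 0 for all genes. Of all 14218 genes, 5824 lay above 0 and 6133 below. The signs of the smaller differences depended on the scaling. With the arrays centred on the hybridisation controls Nppa was at 0.04 and Nppc at -0.19, while Nppb, Npr3 and Npr2 stayed above 0.

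A direct comparison of myoblast minus fibroblast medium asks which genes differ with the donor cell. Nppb was at 0 in myoblast medium and 1.68 in fibroblast medium, a log2 difference of -1.68, or 3.20-fold lower with myoblasts as donors. Npr3 was at -0.52 in myoblast medium and 0.64 in fibroblast medium, a difference of -1.16 (2.24-fold lower). These were the 2 members at least 2-fold lower, where 3.94% of all genes were 2-fold lower, 2.12% were 2-fold higher and 6.06% passed 2-fold in either direction. Npr2 went the same way, at -0.16 against 0.53, a difference of -0.70 (1.62-fold lower). Nppc differed by -0.22, Nppa by -0.12 and Furin by -0.08. No member was higher in myoblast than in fibroblast medium in the deposited values. With the arrays centred on the hybridisation controls Nppa, at 0.16, Nppc, at 0.06, and Furin, at 0.20, were.

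Technical differences could be judged only from 42 probe sets of spiked-in control RNAs, which a protocol of this kind adds to each sample in fixed amounts. Their largest difference was 0.66 for myoblast medium minus fresh, 0.68 in size for fibroblast medium minus fresh and 1.02 between the conditioned media. These are differences in technical steps alone and do not cover those between separate cultures. Sizes beyond them were reached by 5.47%, 12.8% and 5.81% of all genes. Nppb was beyond them in each comparison and Npr3 between the conditioned media, where its 1.16 passed 1.02 by little. The other differences of Npr3, and all those of Nppa, Npr2, Nppc and Furin, were no larger than differences seen among the controls.

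The controls also disagreed with each other, so the scaling of the arrays is uncertain. In fibroblast medium minus fresh, 18 hybridisation controls, which are added after labelling, had a median of 0.40, and 24 poly-A controls, which are added to the RNA, had a median of -0.27. In myoblast medium minus fresh the medians were 0.10 and 0.34. Centring the arrays on one class or the other shifts every gene by the same amount. Under the hybridisation controls the shifts were -0.10 for myoblast minus fresh, -0.37 for fibroblast minus fresh and 0.28 between the conditioned media, and under the poly-A controls they were -0.34, 0.27 and -0.62.

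Nppb kept its direction and stayed past 2-fold under both. Under the hybridisation controls it was at 1.92, 3.33 and -1.40 in the 3 comparisons, and under the poly-A controls at 1.68, 3.97 and -2.29. Npr3 kept its direction in all comparisons, but its difference between the conditioned media was -0.88 under the hybridisation controls, short of 2-fold, and -1.78 under the poly-A controls. Npr2 also kept its direction, at 0.16 and 0.81 in fibroblast medium minus fresh. Nppa in myoblast medium minus fresh turned to -0.05 under the poly-A controls, and Nppc in fibroblast medium minus fresh turned to -0.19 under the hybridisation controls. Of the genes past 2-fold in fibroblast medium minus fresh, 62.1% were higher in the deposited values, 29.2% under the hybridisation controls and 80.8% under the poly-A controls. For myoblast medium minus fresh the shares were 61.5%, 50% and 19.0%, and for myoblast minus fibroblast medium 35.0%, 63.6% and 4.23%. Counts over lists below use the deposited scale.

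**Figure D2:**
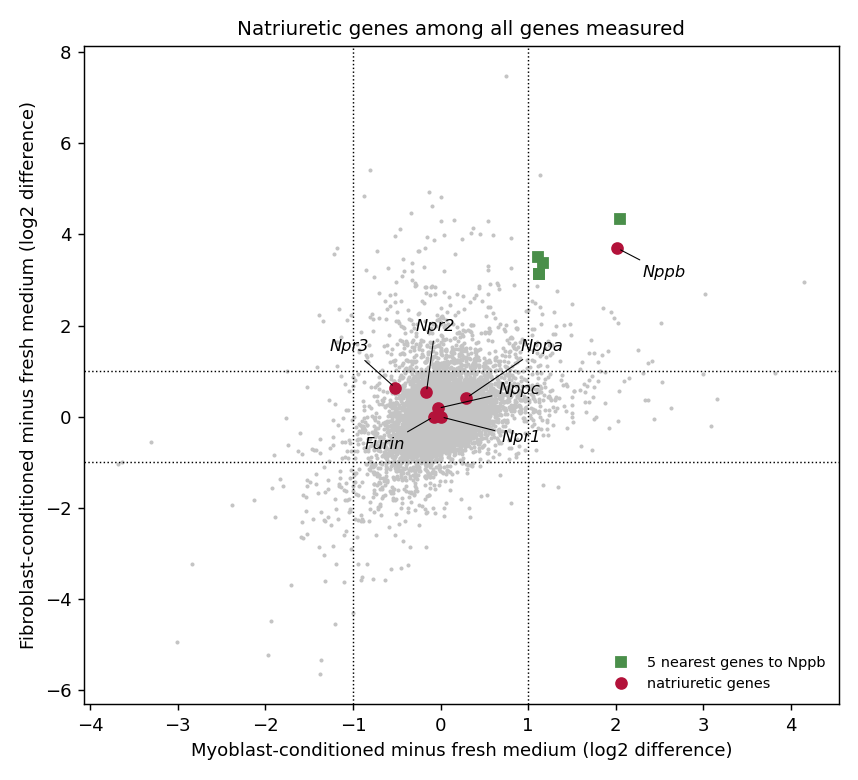
Log2 difference of every gene in myoblast medium minus fresh medium (horizontal) and in fibroblast medium minus fresh medium (vertical), with the 7 natriuretic genes in red, the 5 genes nearest to Nppb in green and dotted lines at 2-fold. Nppb lies at 2.02 and 3.70, outside the cloud, and the other 6 lie inside the 2-fold lines.

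Nppb was 2-fold or more higher at each step from fresh to myoblast to fibroblast medium. This pattern was shown by 15 genes, 0.106% of all, in the deposited values. Apart from Nppb and Serpinb2, none of the 15 exceeded 1.33 in myoblast medium minus fresh. Centring on the poly-A controls shifts that comparison by -0.34, which takes those others below 2-fold at the first step. The genes whose pair of differences from fresh medium lay nearest to that of Nppb, by Euclidean distance over those 2 differences, were Serpinb2, Krt18, Wfdc1, Tnfrsf12a and Reg3g. Serpinb2, which encodes an inhibitor of plasminogen activators, was nearest with a distance of 0.65, and was higher by 2.05 in myoblast and 4.35 in fibroblast medium. Krt18, an epithelial keratin gene, was at a distance of 0.91, with 1.17 and 3.38. Tnfrsf12a, which encodes the receptor of the cytokine TWEAK, was at 1.06, with 1.12 and 3.13. Of the 5, Serpinb2 alone had a difference in myoblast medium near that of Nppb, and the others lay between 1.12 and 1.17.

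Nppb and Nppa are adjacent protein-coding genes in GRCr8, and the genes around them were each less than 2-fold from fresh medium. Of the 5 protein-coding genes on each side of the pair, 8 were measured. In fibroblast medium minus fresh they ranged from -0.36 to 0.27, and in myoblast medium minus fresh from -0.27 to 0.70, with 0 past 2-fold in either. Between the conditioned media 1 passed 2-fold, Miip, at 1.02. Mfn2, which encodes a mitochondrial fusion protein, was at 0.05 in myoblast and -0.36 in fibroblast medium against fresh, and the chloride transporter gene Clcn6 was at 0.08 and -0.11.

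Genes that process or clear the peptides, or carry their cGMP signal inside the cell, went both ways. Of 28 measured, 1 was at least 2-fold higher and 0 lower in myoblast medium, with a median of -0.04. In fibroblast medium 3 were higher and 0 lower, with a median of 0. Over all genes the shares were 1.35% higher and 0.844% lower in myoblast medium, and 4.26% and 2.6% in fibroblast medium. Between myoblast and fibroblast medium 1 was higher and 4 were lower, with a median of -0.08, where 2.12% of all genes were higher and 3.94% lower. Pcsk6, a convertase known to activate the pro-ANP protease corin, was higher by 1.95 in myoblast and by 2.29 in fibroblast medium. Trpc6, a cation channel that cGMP-dependent kinase is known to inhibit, was at 0.09 and 2.63. Rgs4, a brake on G protein signalling, was at -0.41 and 1.83. The degrading enzyme neprilysin, encoded by Mme, was at -0.26 and 0.83. Corin and Prkg1 were not analysed here.

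Transcription factors known for the Nppa and Nppb promoters had list medians near 0. Of 38 measured, 0 were at least 2-fold higher and 1 lower in myoblast medium (median -0.07), and 2 were higher and 2 lower in fibroblast medium (median 0.02). Over all genes 2.19% passed 2-fold in either direction in myoblast medium and 6.85% in fibroblast medium. Gata4 was at -0.02 in myoblast and 0.03 in fibroblast medium, Tead1 at -0.05 and 0.06, and Nkx2-5 at -0.19 and -0.31. Hey1 and Hey2, transcriptional repressors that Notch signalling induces, were the lowest. Hey1 was at -1.60 and -2.64, and Hey2 at -0.88 and -1.75. The AP-1 gene Junb was at 0.34 and 1.41, and Klf13, a factor that binds the Nppa promoter, was at -0.07 and 1.04.

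**Figure D3:**
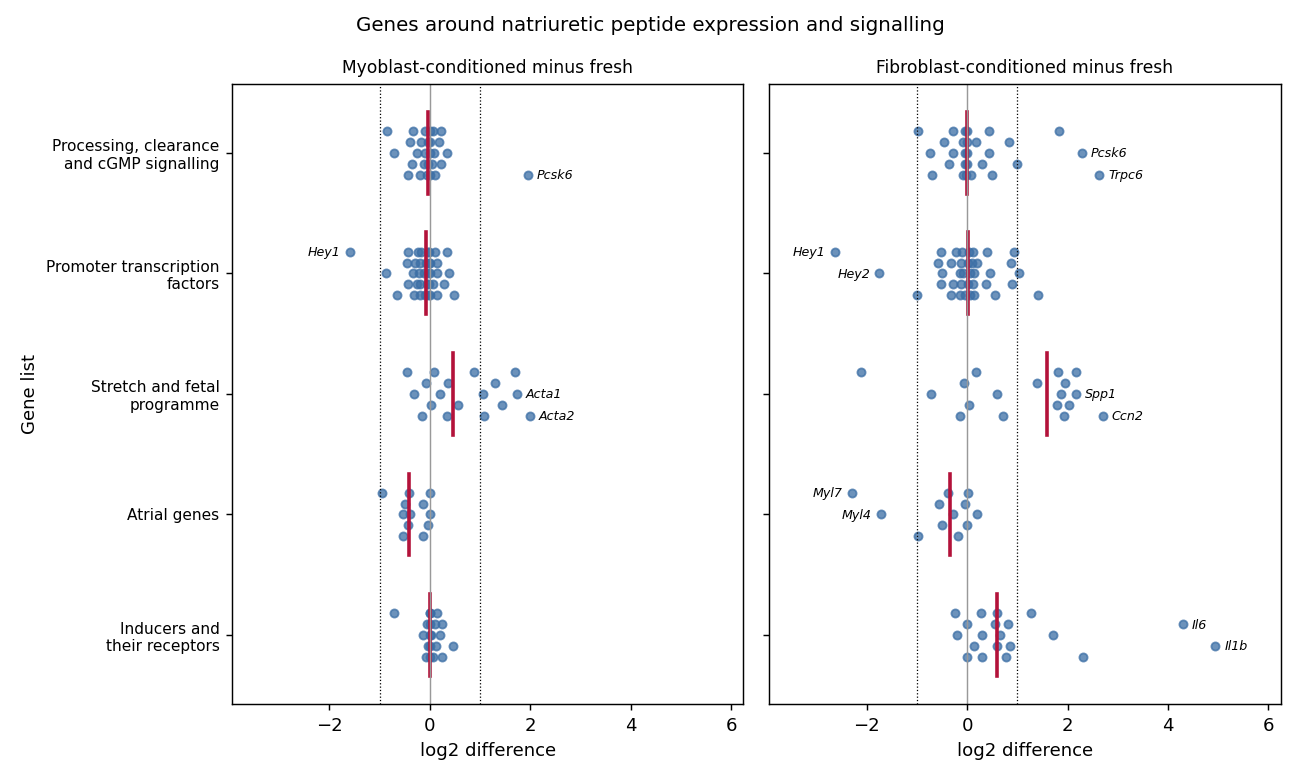
Log2 difference of each gene in 5 lists, for myoblast medium minus fresh (left) and fibroblast medium minus fresh (right), with red bars at list medians, dotted lines at 2-fold and names for at most 2 genes past 2-fold in each list. The stretch and fetal programme list has the highest medians, 0.46 and 1.59. The promoter factors have medians of -0.07 and 0.02, with Hey1 lowest at -1.60 and -2.64.

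Genes of the stretch and fetal programme included several that were higher in each medium. This list shares genes with marker lists of other cells, Acta2 with smooth muscle, Postn with fibroblasts and Des with skeletal myoblasts. It shares Myh6 and Myh7 with the cardiomyocyte markers. Of 18 measured, 7 were at least 2-fold higher and 0 lower in myoblast medium (median 0.46), and 10 were higher and 1 lower in fibroblast medium (median 1.59). Over all genes 1.35% were at least 2-fold higher in myoblast medium and 4.26% in fibroblast medium. The list was chosen with earlier results of these data known, and the part of each cell type in its counts was not tested. The 7 genes short of 2-fold in fibroblast medium included Des, at -0.14, Xirp1, at 0.17, Hspb7, at 0.04, and Postn, at -0.06. Ccn2, which encodes a stretch-induced matricellular protein, was at 0.19 in myoblast and 2.70 in fibroblast medium. Acta2, the smooth muscle actin gene that fetal cardiomyocytes also use, was at 1.98 and 2.17. The matrix cytokine gene Spp1 was at 0.03 and 2.17, the calcineurin regulator gene Rcan1 at -0.32 and 2.03, and the protease inhibitor gene Timp1 at 0.87 and 1.95. The heavy chain gene Myh6, which is lowered in hypertrophy of the rodent heart, was at -0.16 and -2.11. Not all genes higher in myoblast medium had the media order of Nppb. Acta1 was at 1.73 and -0.72, Gdf15 at 1.70 and 1.40, Myh7 at 1.43 and 0.72, and Fhl1 at 1.08 and 0.60. Csrp3, at 1.29 and 1.81, and Il1rl1, at 1.06 and 1.93, were higher still in fibroblast medium. Atrial genes, the class to which Nppa belongs in the adult heart, had 12 measured members and medians of -0.41 and -0.33. None was 2-fold higher, and the light chain genes Myl7, at -0.41 and -2.30, and Myl4, at -0.14 and -1.72, were the 2 past 2-fold, both in fibroblast medium. There 2.6% of all genes were 2-fold lower.

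Some known extracellular inducers of Nppa and Nppb, or their receptors, were higher in fibroblast medium. Of 20 measured, 0 passed 2-fold in myoblast medium (median 0). In fibroblast medium 5 were at least 2-fold higher, 0 were lower and 15 were short of 2-fold (median 0.59). Of all genes, 2.19% passed 2-fold in myoblast medium, and 4.26% were higher and 2.6% lower in fibroblast medium. Il1b was at -0.13 in myoblast and 4.94 in fibroblast medium, Il6 at 0 and 4.29, and Tgfb2 at 0.20 and 2.30. The angiotensin receptor gene Agtr1a was at 0.06 and 1.71, and the EGF receptor ligand gene Hbegf at 0.23 and 1.27. Edn1, which encodes endothelin-1, was at 0.23 and 0.86. The macrophage markers Adgre1, at 5.41, and Lyz2, at 4.85, were higher in the same fibroblast medium array, and 12 of 12 such markers lay above 0. The part of macrophages in the Il1b and Il6 differences was not tested, nor was whether any of these products acted on Nppb.

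The identity of the cultures was checked on marker lists, which can be read as differences only, since centred values cannot be summed into a level per array. Tnnt2, Tnni3, Myh6, Ryr2 and 7 other cardiomyocyte markers all had values, but centred values cannot show that they were abundant. In myoblast medium 1 of the 11 was at least 2-fold higher and 0 lower (median -0.16). In fibroblast medium 0 were higher and 3 lower (median -0.58). The shares over all genes were 1.35% higher and 0.844% lower in myoblast medium, and 4.26% and 2.6% in fibroblast medium. In each conditioned medium 9 of the 11 lay below 0. Of all 14218 genes, 5719 lay below 0 in myoblast medium and 6133 in fibroblast medium. The signs of small differences depend on the scaling, and the part of these markers in the Nppb differences was not tested. In bulk RNA fewer cells of a type and less RNA per cell cannot be told apart.

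Markers of some other cells also differed between the media. The counts below stand beside shares over all genes of 1.35% higher and 0.844% lower in myoblast medium. In fibroblast medium those shares were 4.26% and 2.6%. Macrophage markers were below 0 for 12 of 12 in myoblast medium (median -0.49) and above 0 for 12 of 12 in fibroblast medium, where 9 were at least 2-fold higher (median 1.59). Npr3, Npr2 and Nppc had the same signs in the deposited values, in differences no larger than those among the control RNAs. So did the medians of the fibroblast markers below. Under the hybridisation controls Nppc turned to -0.19 in fibroblast medium. Endothelial and endocardial markers, of cells in which Nppc and Npr3 are known to be expressed, were 2-fold lower for 4 of 10 in myoblast medium (median -0.60) and 7 of 10 in fibroblast medium (median -2.02). Npr3 was at -0.52 in myoblast and 0.64 in fibroblast medium, and which cells its RNA came from was not tested. Fibroblast markers had medians of -0.10 and 0.09, with 0 of 10 higher and 1 lower in myoblast medium and 1 higher and 1 lower in fibroblast medium. Of 8 smooth muscle and pericyte markers, 3 were 2-fold higher in each medium, and 1 was lower in myoblast medium. Of 6 skeletal myoblast markers, 0 passed 2-fold in either medium. Of 6 epicardial markers, 1 was higher in myoblast medium, and 2 were higher and 1 lower in fibroblast medium. In all 7 marker lists no measured gene was blank on all arrays. The part of these markers in the differences of Nppb, Npr3, Npr2 and Nppc was not tested. As a sign of RNA quality, the difference between 3' and 5' probe sets moved by at most 0.37 between arrays for beta-actin and 0.02 for GAPDH.

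**Figure D4:**
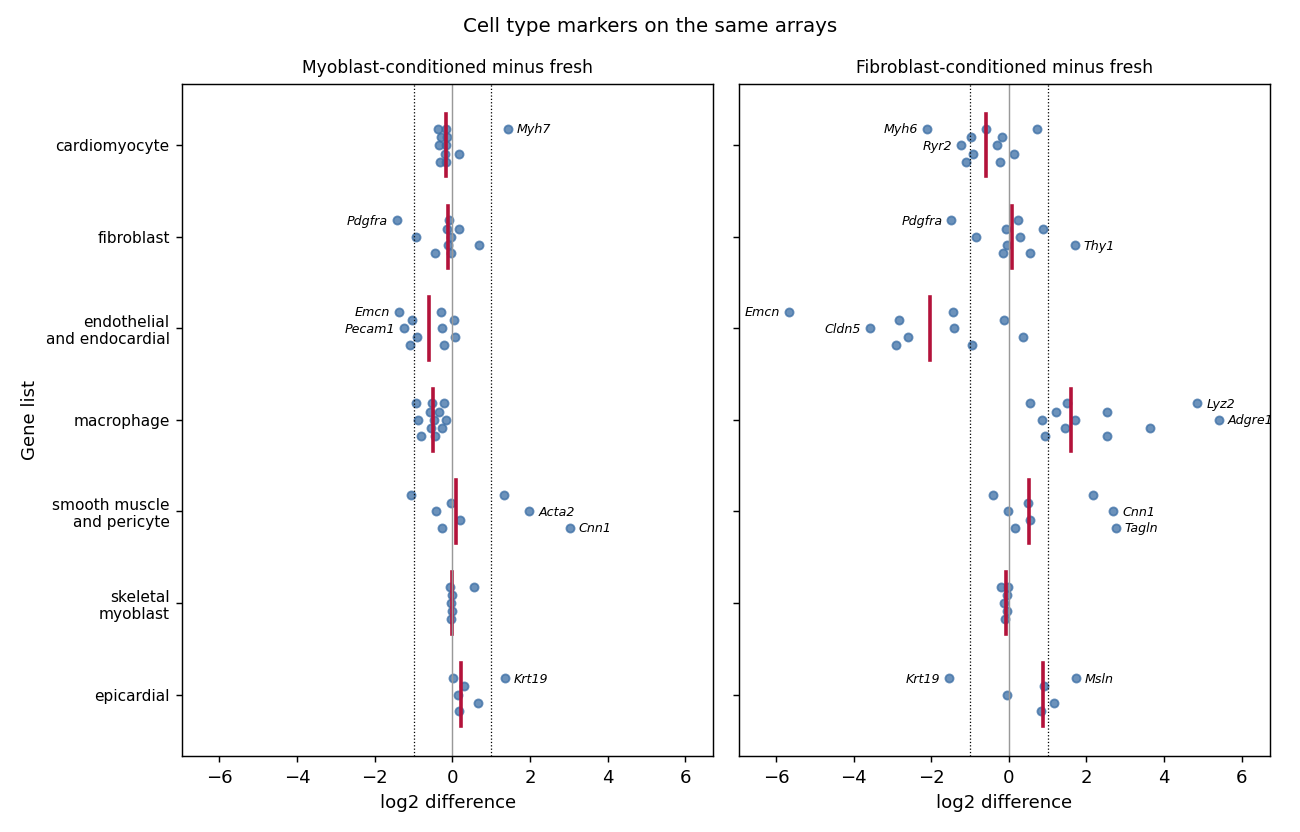
Log2 difference of each marker gene of 7 cell types, for myoblast medium minus fresh (left) and fibroblast medium minus fresh (right), with red bars at list medians, dotted lines at 2-fold and names for at most 2 genes past 2-fold in each list. Macrophage markers sit on opposite sides of 0 in the 2 media, with medians of -0.49 and 1.59, and endothelial markers are lowest in fibroblast medium.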

How the data were processed

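Total RNA from 3 cultures was labelled with biotin and hybridised to 1 array each, and normalised with RMA per the submitters' processing notes, with version and settings not given in the sources used here. Log2 values as deposited are centred on each probe set's median over the arrays, as the values show: of 31099 probe sets, 17117 had 2 values (always 1 positive and 1 negative), 8002 had 1, 5980 had 0 and none had 3. Blanks were read as 0. The log base is taken from RMA. The platform annotation, which is dated, gave 20832 probe sets 1 symbol, 436 several and 9831 none. Symbols were updated by Entrez ID through RefSeq (GRCr8), which matched 20764. A gene was the mean of its probe sets. Differences of log2 values were taken and 2-fold was the size for counts. No test exists with 1 array per medium. Members and lists were chosen with earlier results of these data known. All members were named. For other genes, those past 2-fold against fresh medium in each list (at most 6, by size) and the 5 nearest to Nppb were named. Mme, Gata4, Tead1, Nkx2-5, Edn1, Mfn2, Clcn6, Miip, Adgre1 and Lyz2 were added after their values were seen. Acta1, Gdf15, Myh7, Csrp3, Fhl1, Il1rl1, Des, Xirp1, Hspb7 and Postn were added in the same way. Counting was tested on simulated data. Promoter sequences are from RefSeq. Python 3.11.15, NumPy 2.4.6, pandas 2.3.3 and Matplotlib 3.10.9 were used.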

Additional observations from a re-analysis of the deposited data

How the results depend on the processing

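Each member has 1 probe set, so taking the median of the probe sets of a gene, or the one with the widest range, left the members' values as they were. Nppb stayed at least 2-fold higher than fresh medium in both conditioned media under every setting tried, the 3-fold threshold included. Without probe sets whose identifiers mark shared or several transcripts, Npr3 had no value and 1 member was 2-fold apart between the conditioned media, where 5.98% of all genes were. At a 3-fold threshold 1 was, Nppb, against 2.38% of all genes. At a 1.5-fold threshold 2 members, Nppb and Npr3, differed in fibroblast medium from fresh, where 16.1% of all genes did, and 3 members differed between the conditioned media, where 15% did. Centring on the added controls moved the 7 differences of myoblast medium from fresh by more than 1 SD of the controls, to 1.84 for Nppb, 0.12 for Nppa and -0.70 for Npr3. Centring on the hybridisation controls alone, added after the data were seen, left 1 member 2-fold apart between the conditioned media, where 7.11% of all genes were, and centring on the poly-A controls alone left 3, where 13.5% were. Of 159 recomputed values, 138 moved by less than 1 SD of the controls, a count that says little about stability. Settings that only choose among probe sets could not move a member with 1 probe set. The SD also pools both control classes, which disagreed. For fibroblast medium minus fresh it was 0.38, against 0.11 within the hybridisation controls and 0.23 within the poly-A controls. With only genes of 1 probe set and a value, an alternative added after the data were seen, the shares of all genes past 2-fold were 3.06% for myoblast medium minus fresh, 9.06% for fibroblast medium minus fresh and 8.26% between the conditioned media. No paired analysis was possible because each medium has 1 array, and no array could be left out. Signal over background is unknown after centring.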
